A study of Sus scrofa with 12 samples.

Results

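Genes of the translation initiation factors (EIF1 to EIF6) and of the elongation factors (EEF1 and EEF2) were examined in pig (Sus scrofa) blastocysts. They were taken by the gene symbol of the array annotation, every symbol beginning with EIF1 to EIF6, EEF1 or EEF2 except EIF2AK4, and probes of 1 symbol were averaged on each array. The rule reads symbols and no measured value. The first array set measured 45 such genes of 11913 named ones and the second 18 of 4531. That makes 48 genes in all, 15 of them on both sets. The older symbols EIF2C1, EIF2C2 and EIF2C4 stand for the Argonaute genes AGO1, AGO2 and AGO4, whose products carry small RNAs in gene silencing. These 3 are not translation factors and are described last, which left 42 genes in the first set and 16 in the second. They are called translation factor genes below, although by the symbol rule they include kinases and partners of the factors, such as EEF2K and EEF1E1.

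The embryos were hatched blastocysts at 5.5 days after insemination, which had left the zona pellucida, and early blastocysts at 5 days, both grown in vivo. Hatched and early RNA were hybridised directly against each other on 2 array designs with 6 arrays each, 3 with the hatched stage in the dye Cy5 and 3 with the early stage in Cy5. The direct comparison addresses which transcripts changed between the stages. Per the labels, embryo RNA came from PicoPure columns, went through 2 rounds of T7 amplification and was labelled chemically for Agilent slides. The deposited value is a log ratio of the stages, taken as log2, and the folds given below rest on that reading. The sources used here do not say which stage is the numerator, so ratios are called positive or negative as deposited, and neither stage is called higher. Arrays are named by the stage in Cy5 with a number that only tells them apart. The labels tie no array to an RNA extract or a litter, so the p-values rest on array-to-array spread, part of which may be technical. In whole embryos, fewer cells of a type and less RNA per cell cannot be told apart, and ratios show no level of any gene.

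Translation of most mRNAs begins when the small ribosomal subunit, carrying the initiator tRNA brought by eIF2, eIF1, eIF1A and the large scaffold eIF3, joins an mRNA held at its cap by eIF4E and eIF4G and unwound by the helicase eIF4A. The complex scans to a start codon, which eIF1 guards, and eIF5 and eIF5B let the large subunit join. Elongation then runs on eEF1, which delivers charged tRNAs, and eEF2, which moves the ribosome along the message and is switched off by the kinase eEF2K. Blastocysts are known for a steep rise in protein synthesis around blastocyst formation in mammals.

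On the first array set 5 of the 42 translation factor genes passed the test (limma, adjusted p under 0.05 over all genes), 4 on the negative side and 1 on the positive. The negative ones were EIF1, EIF1B, EIF3M and EIF4E2 and the positive one was EIF3K. That is 11.9% of these genes, against 4.75% of all genes, with 2.38% of all genes on the positive side and 2.38% on the negative. A random block for array pairs that deviate together, described further on, left 2 of the 42 called, against 3.79% of all genes. These 2 were EIF1 and EIF1B, paralogues whose signal cannot be told apart here, so both counts of called genes may hold 1 measurement as 2 genes. At an unadjusted p under 0.05 the count was 13 of 42, against 17.1% of all genes. Most of the genes lay near 0: 28 of 42 had a log2 ratio of under 0.25 in size, 6 of over 0.5, and 1, EEF2K, reached 2-fold without passing. The median log2 ratio was -0.0588, with 18 genes above 0 and 24 below, against 0.0027 over all genes, and the standard deviation over genes was 0.312 against 0.245 over all genes. Standard errors of the 42 mean ratios ran from 0.0515 to 0.290, with a median of 0.0852, and the number of arrays limits this precision. On the second array set 0 of 16 translation factor genes passed in limma, where 11.0% of all genes did, and the count stayed at 0 with robust variances. There 4 of 16 reached an unadjusted p under 0.05, against 23.7% of all genes, a share near that background. The median was -0.0176, and the standard deviation over genes was 0.244 against 0.309 over all genes.

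**Figure D1:**
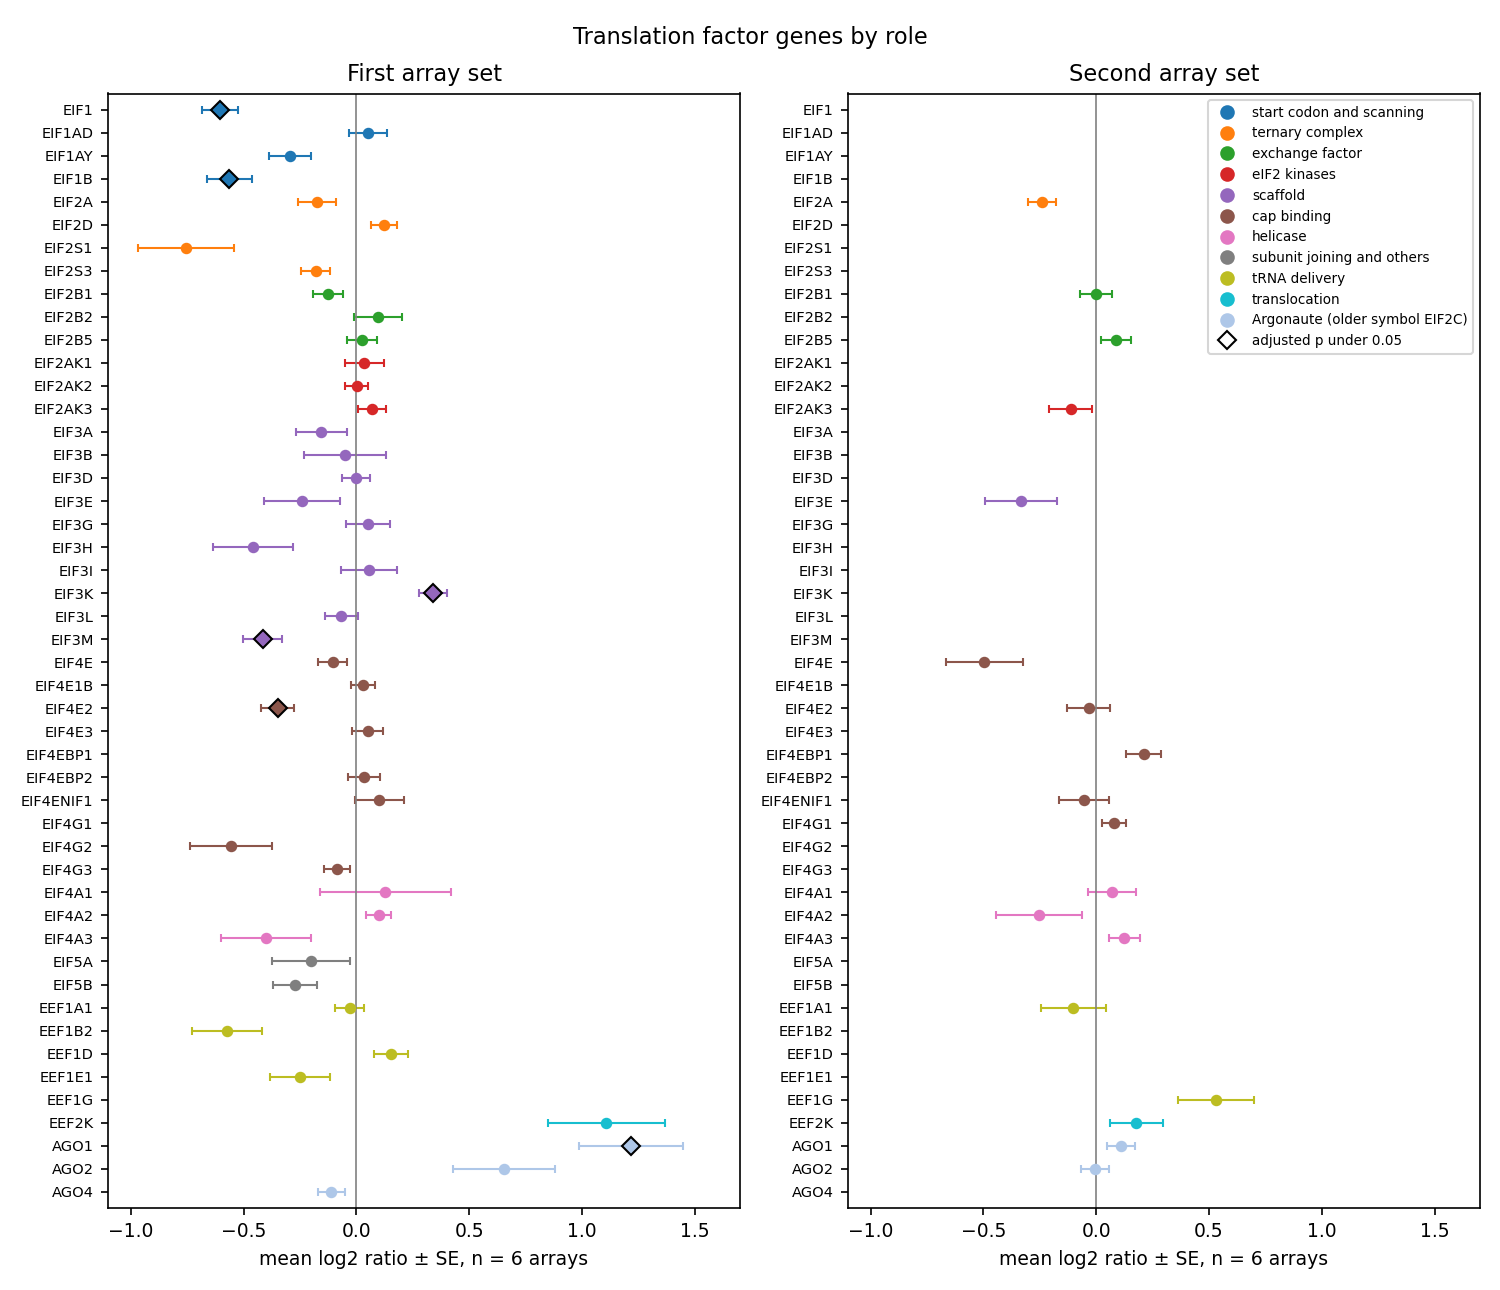
Mean log2 ratio of every gene (horizontal axis; bars are the standard error, n = 6 arrays) on the first and the second array set, with genes down the page ordered and coloured by role. Diamonds with black edges mark an adjusted p under 0.05, which 6 genes of the first set reach, AGO1 included, and 0 of the second; most points lie within 0.25 of 0.

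The start codon factors held the most negative of the called ratios. EIF1, which keeps the scanning ribosome from starting at the wrong codon, had log2 ratios of -0.55, -0.35 and -0.18 on the 3 arrays with hatched in Cy5, and of -0.83, -1.09 and -0.63 on those with early in Cy5. All 6 arrays lay on the negative side, with the arrays of hatched in Cy5 closer to 0 without overlapping those of early in Cy5. The mean was -0.60 ± 0.08 (SE, n = 6 arrays; limma adjusted p = 0.00856), a fold of 1.52, and its 2 probes lay at -0.62 and -0.59. EIF1 was called with any 1 array left out (adjusted p up to 0.0387, without early in Cy5 replicate 2).

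EIF1B encodes a close paralogue of eIF1 and was measured by 1 probe. It lay at -0.48, -0.32 and -0.11 with hatched in Cy5 and at -0.75, -1.21 and -0.51 with early in Cy5. These follow the values of EIF1 array by array, with every array on the negative side. The mean was -0.56 ± 0.10 (adjusted p = 0.0228). Dropping hatched in Cy5 replicate 1 (adjusted p = 0.0871), 2 (0.0520) or 3 (0.0560), or early in Cy5 replicate 2 (0.0551), removed the call. Signal of the 2 paralogues cannot be told apart here, so EIF1 and EIF1B may be 1 measurement.

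EIF1AY, named by its symbol as the Y-linked copy of eIF1A, which opens the small subunit for scanning, was not called (-0.29 ± 0.09, adjusted p = 0.146). It is described after its values were seen. Its 2 probes differed: 1 lay at -0.48 and passed by itself (adjusted p = 0.0308) and the other at -0.11. Signal of the X-linked copy, which is close in sequence, cannot be told apart from it.

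Over the genes grouped for eIF2 and other carriers of initiator tRNA, 0 of 4 on the first array set passed in limma. The 2 at an unadjusted p under 0.05 were the measured subunits of eIF2, EIF2S1 and EIF2S3. EIF2S1, the alpha subunit of eIF2 whose phosphorylation slows initiation, had the most negative mean of all 42 genes. It lay at -1.35, -0.10 and -0.34 with hatched in Cy5 and at -0.20, -1.60 and -0.93 with early in Cy5. All 6 arrays were negative, but 2 of them reached -1.35 or beyond and 2 others lay at -0.20 and -0.10. The mean of -0.75 ± 0.21 did not pass (adjusted p = 0.112). EIF2S3, the gamma subunit that binds GTP and the initiator tRNA, had a mean of -0.18 ± 0.06 (adjusted p = 0.193) from probes at -0.45 and 0.09. EIF2A, an alternative carrier of initiator tRNA, lay at -0.17 ± 0.08 (adjusted p = 0.370).

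EIF2A came closest to the threshold on the second array set. There it lay at -0.45, -0.20 and -0.30 with hatched in Cy5 and at -0.06, -0.15 and -0.29 with early in Cy5. It was the 1 gene of the 16 on the same side on all 6 arrays, as were 15.2% of all genes, and the 2 dye orientations overlapped. The mean was -0.24 ± 0.06 (adjusted p = 0.0514), and its 5 probes ran from -0.70 to 0.08.

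The exchange factor eIF2B reloads eIF2 with GTP, and the eIF2 kinases block that step under stress. None of their genes taken by the symbol rule passed in limma. EIF2AK4, the eIF2 kinase that the rule leaves out, was called on the first array set (-1.89 ± 0.20, adjusted p = 0.00404). It is described with the related lists. EIF2B1 lay at -0.13 ± 0.07 in the first set (adjusted p = 0.413) and at -0.00 in the second (0.995). EIF2B2 lay at 0.10 ± 0.11 on the first (0.733), and EIF2B5 at 0.03 ± 0.07 in the first set (0.890) and 0.09 ± 0.07 in the second (0.508). Of the kinases, EIF2AK1, known for responding to lack of haem, lay at 0.03 ± 0.09 (0.890), EIF2AK2, which senses double-stranded RNA, at 0.00 ± 0.05 (0.994), and EIF2AK3, the kinase of the endoplasmic reticulum, at 0.07 ± 0.06 (0.647). EIF2AK3 lay at -0.11 ± 0.10 on the second array set (0.562). These 6 genes thus ran from -0.13 to 0.10 over both array sets.

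Genes of eIF3, the scaffold that binds the small subunit and the cap complex, went to both sides: 10 were measured in the first set, with 1 positive call and 1 negative. EIF3K, a peripheral subunit, lay at 0.46, 0.17 and 0.51 with hatched in Cy5 and at 0.22, 0.38 and 0.30 with early in Cy5. It was the 1 translation factor gene positive on all 6 arrays, and the dye orientations overlapped. The mean was 0.34 ± 0.06 (adjusted p = 0.0285, and 0.0600 with the array pairs as a random block, which ends the call). Its 3 probes lay at 0.03, 0.48 and 0.51, and the call ended when their median was taken. It also ended without any 1 array other than hatched in Cy5 replicate 2, with adjusted p-values of 0.105 and 0.0982 without hatched in Cy5 replicates 1 and 3, and of 0.0511, 0.124 and 0.111 without early in Cy5 replicates 1, 2 and 3.

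EIF3M, needed in mouse embryos for the integrity of eIF3, was measured by 1 probe. It lay at -0.64, -0.22 and -0.32 with hatched in Cy5 and at -0.14, -0.59 and -0.59 with early in Cy5. All arrays were negative and the orientations overlapped. The mean was -0.42 ± 0.09 (adjusted p = 0.0414), and the pair block ended the call (0.0688). Without early in Cy5 replicate 1 the adjusted p was 0.0249, and leaving out any other array ended the call (0.128, 0.0507 and 0.110 without hatched in Cy5 replicates 1, 2 and 3, 0.157 and 0.164 without early in Cy5 replicates 2 and 3).

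EIF3H, another subunit of eIF3, had a larger mean than EIF3M and a wider spread. It lay at -0.75, 0.25 and -0.24 with hatched in Cy5 and at -0.25, -1.38 and -0.38 with early in Cy5. The mean of -0.46 ± 0.18 did not pass (adjusted p = 0.242). EIF3A, the largest subunit of the core, lay at -0.16 ± 0.11 (adjusted p = 0.566). EIF3E lay at -0.24 ± 0.17 on the first array set (0.553) and at -0.33 ± 0.16 on the second (0.264).

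**Figure D2:**
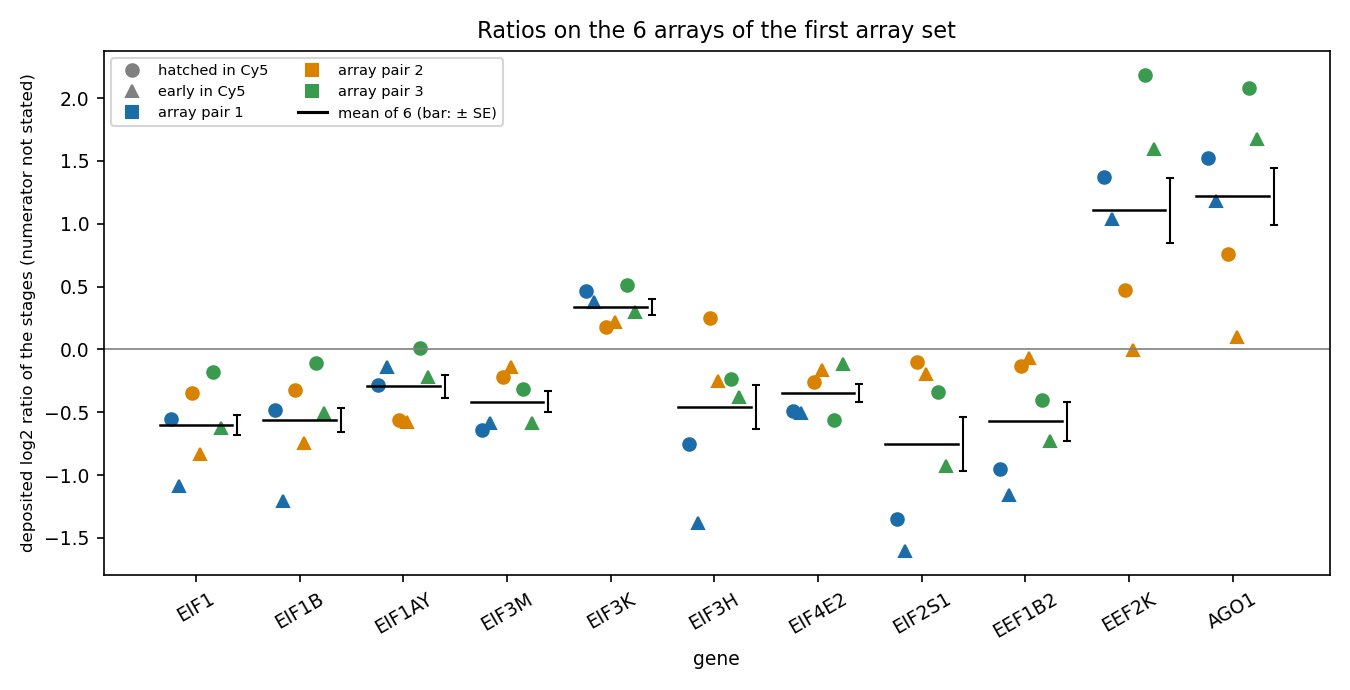
Deposited log2 ratio (vertical axis) of 11 genes on each of the 6 arrays of the first array set, with circles for hatched in Cy5, triangles for early in Cy5 and colours for the array pairs that share a residual pattern; lines are means of 6 arrays with the standard error beside them. EIF1 and EIF1B are negative on every array, and EIF2S1, EEF1B2, EEF2K and AGO1 lie closer to 0 on the second pair than on the other pairs.

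In the cap-binding group 1 of 8 genes passed on the first array set and 0 of 5 in limma on the second, where 2 had an unadjusted p under 0.05. EIF4E2 encodes 4EHP, a cap-binding protein that represses the mRNAs it holds. It lay at -0.49, -0.26 and -0.56 with hatched in Cy5 and at -0.17, -0.50 and -0.12 with early in Cy5. Every array was negative and the orientations overlapped. The mean was -0.35 ± 0.07 (adjusted p = 0.0433), and the pair block ended the call (0.102). Its 3 probes were the most spread of any translation factor gene on this set, at -0.71, -0.24 and -0.10, and none of them passed alone. Leaving out hatched in Cy5 replicate 2 kept the call (adjusted p = 0.0446) and leaving out any other array ended it (0.144 and 0.142 without hatched in Cy5 replicates 1 and 3, 0.0715, 0.142 and 0.0980 without early in Cy5 replicates 1, 2 and 3). The second array set put EIF4E2 at -0.03 ± 0.10 (0.879).

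EIF4E, the cap-binding protein of general initiation, lay at -0.11 ± 0.06 on the first array set (adjusted p = 0.470). On the second it lay at -0.83, -0.23 and 0.16 with hatched in Cy5 and at -0.69, -1.26 and -0.12 with early in Cy5. Its values there crossed 0, with 5 of 6 arrays negative, and the mean of -0.50 ± 0.17 did not pass (0.120). EIF4EBP1, which binds eIF4E and keeps it from eIF4G until TOR phosphorylates it, was measured on the second array set alone, at 0.21 ± 0.08 (0.140). EIF4G1, the main eIF4G, lay at 0.08 ± 0.05 there (0.438).

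EIF4G2 encodes DAP5, an eIF4G relative that lacks the eIF4E site and serves cap-independent initiation. It lay at -1.02, 0.08 and -0.81 with hatched in Cy5 and at 0.12, -0.92 and -0.78 with early in Cy5. On 4 arrays it was at -0.78 or below and on the other 2 slightly above 0. The mean of -0.56 ± 0.18 did not pass (adjusted p = 0.165), with both probes below 0, at -0.73 and -0.38.

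None of the 3 eIF4A genes passed in limma on either array set, and none reached an unadjusted p under 0.05. EIF4A1, the main helicase of initiation, had the widest range of the 42 genes. It lay at -0.25, -1.02 and 0.99 with hatched in Cy5 and at -0.38, 0.12 and 1.30 with early in Cy5. The mean was 0.13 ± 0.29 (adjusted p = 0.881), and in the second set 0.07 ± 0.10 (0.762). EIF4A2, its paralogue, lay at 0.10 ± 0.05 (0.427) and -0.25 ± 0.19 (0.505), on opposite sides. EIF4A3, the helicase of the exon junction complex, lay at -0.40 ± 0.20 (0.380) and 0.12 ± 0.07 (0.346). EIF4A1 and EIF4A2 are close in sequence, so their probes may share signal.

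EIF5B, the GTPase of subunit joining, had a mean of -0.27 ± 0.10 (adjusted p = 0.212). EIF5A, the hypusine-bearing factor that helps the ribosome through difficult stretches, lay at -0.68, 0.18 and -0.49 with hatched in Cy5 and at 0.64, -0.43 and -0.42 with early in Cy5. It was negative on 4 arrays and positive on 2, and the mean of -0.20 ± 0.17 did not pass (0.639).

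Among the elongation factors, EEF1A1, which carries charged tRNA to the ribosome, lay close to 0, at -0.03 ± 0.06 on the first array set (adjusted p = 0.869) and at -0.10 ± 0.14 on the second (0.748). EEF1B2, the factor that reloads eEF1A with GTP, lay at -0.95, -0.13 and -0.40 with hatched in Cy5 and at -0.07, -1.16 and -0.73 with early in Cy5. All 6 arrays were negative, and the mean of -0.57 ± 0.16 did not pass (0.100), although the probe at -0.38 passed alone (0.0462) and the probe at -0.76 did not (0.163). EEF1G, the subunit that anchors the exchange complex, was measured on the second array set, at 0.48, -0.25 and 0.88 with hatched in Cy5 and 0.15, 0.92 and 1.02 with early in Cy5. It was positive on 5 of 6 arrays, with a mean of 0.53 ± 0.17 (0.0949), the largest in size of that set's 16 genes. It passed without early in Cy5 replicate 1 (0.0447) or hatched in Cy5 replicate 2 (0.0280).

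EEF1E1, a small protein of the complex that holds several tRNA synthetases together, lay at -0.25 ± 0.13 (adjusted p = 0.410). EEF1D, another exchange subunit, is added after its values were seen. Its mean was 0.15 ± 0.07 (0.365), and of its 7 probes, which ran from -0.07 to 0.36, 2 passed alone. Subunits of the same exchange complex thus lay on different sides, EEF1B2 negative and EEF1D and EEF1G positive, with none of them called.

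EEF2K encodes the kinase that phosphorylates eEF2 and so halts elongation. It had the largest ratio of the 42 genes, from 1 probe, at 1.37, 0.47 and 2.19 with hatched in Cy5 and at -0.01, 1.04 and 1.60 with early in Cy5. On 4 arrays it was at 1.04 or above and on the others near 0 or at 0.47. The mean of 1.11 ± 0.26, a fold of 2.16, did not pass (adjusted p = 0.0625), and 0.831% of all genes had a larger ratio in size. It passed without early in Cy5 replicate 1 (0.0340) or hatched in Cy5 replicate 2 (0.0338). On the second array set EEF2K, again 1 probe, lay at 0.18 ± 0.12 (0.438).

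All 6 arrays of the first set agreed in sign for 7 of the 42 genes, as they did for 9.24% of all genes. They were EIF3K on the positive side and EIF1, EIF1B, EIF2S1, EIF3M, EIF4E2 and EEF1B2 on the negative. The dye term of the fit, which takes up differences between hatched in Cy5 and early in Cy5, passed for 0 of 42 genes in limma, with 7 at an unadjusted p under 0.05, and for 0.991% of all genes. EIF3G, an RNA-binding subunit of eIF3 picked for this value, had the smallest adjusted p for the dye (0.0769, dye effect -0.83) and a stage ratio of 0.05 ± 0.10. The dye effects of EIF1 and EIF1B were 0.49 (dye adjusted p = 0.140) and 0.52 (0.194).

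The 6 arrays of a set were matched into 3 pairs, each of 1 array with hatched in Cy5 and 1 with early in Cy5. Of all such matchings, the 1 with the largest sum of residual correlations over all genes was kept. Within these pairs deviations from the fit went together (residual correlations over genes of 0.358 to 0.725 in the first set, and 0.556 to 0.746 in the second). Pairs within 1 orientation were not considered, and the labels do not name the pairs kept. The first holds hatched in Cy5 replicate 1 and early in Cy5 replicate 2, the second hatched in Cy5 replicate 2 and early in Cy5 replicate 1, and the last both replicates 3. The ratios spread least on the second pair, over all genes as well. The standard deviation over the 42 genes was 0.252 there, 0.511 on the first pair and 0.470 on the last, against 0.234, 0.373 and 0.320 over all genes. The median was -0.0044 on the second pair, against -0.0741 on the first and -0.105 on the last, and 21, 28 and 29 genes lay below 0.

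A group of 12 of the 42 genes was negative on the first and last pairs and positive on the second. They were EIF1AD, EIF2AK2, EIF2B1, EIF3A, EIF3E, EIF3H, EIF4A3, EIF4E, EIF4G2, EIF5A, EEF1A1 and EEF1E1, and 4 genes showed the reverse. Of all genes 15.9% had the pattern and 16.7% its reverse. A mean of any size above 0 counted as positive, and that of EIF3H on the second pair was 0.00, from arrays at 0.25 and -0.25. EIF4A3, for example, had pair means of -0.97, 0.27 and -0.50, EIF4G2 of -0.97, 0.10 and -0.80, and EIF5A of -0.56, 0.41 and -0.46, in the order of the pairs. Of the 16 genes of the second array set EIF3E (-0.77, 0.21 and -0.44) and EIF4A2 (-0.90, 0.28 and -0.14) had this pattern. As many, 2, showed the reverse. Over all genes of that set 14.1% had the pattern and 15.5% its reverse. EIF1 on the first array set did not have the pattern: its pair means were -0.82, -0.59 and -0.40.

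**Figure D3:**
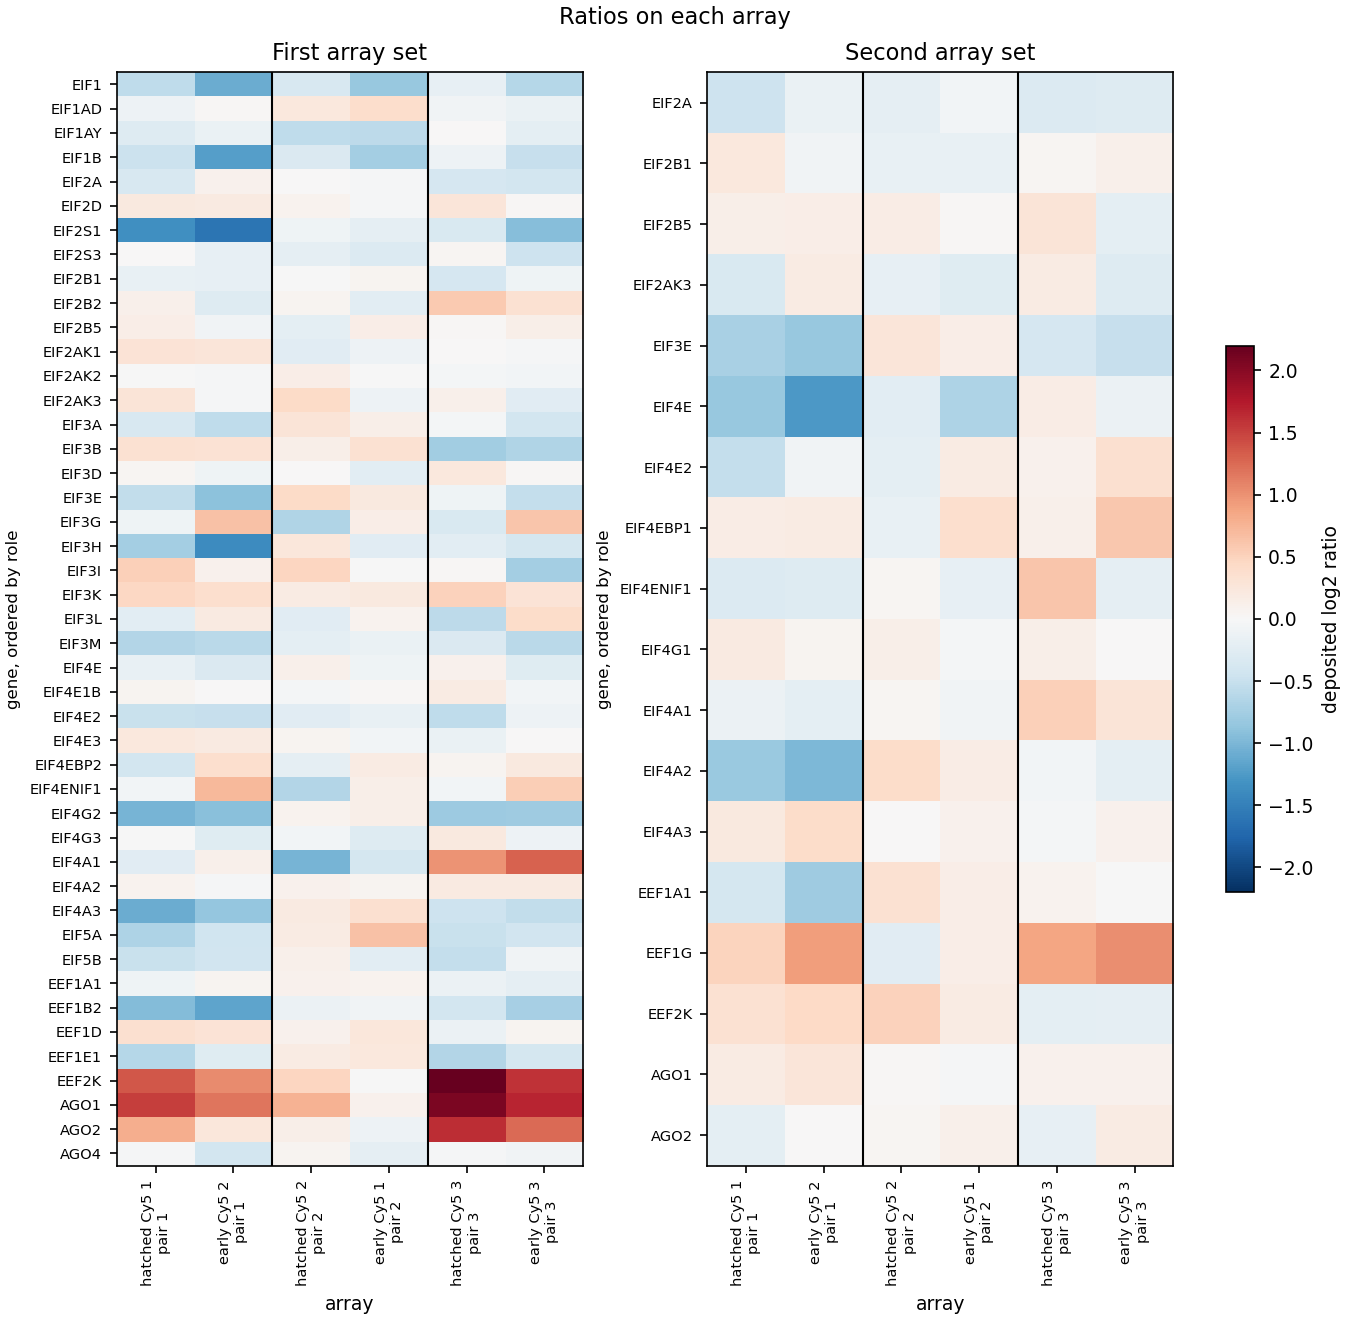
Deposited log2 ratio (colour; red positive, blue negative) of each gene (down the page, by role) on each array (columns, grouped by array pair, hatched in Cy5 left of early in Cy5). On the first array set the arrays of a pair share a sign for 28, 23 and 29 of the 42 translation factor genes, from first to last pair. EIF4A3, EIF4G2 and EIF5A are blue there on the first and last pairs and pale red on the second.

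An alternative chosen after the data were seen left the second pair out. It gave 15 called genes of 45 on the first array set, Argonautes included, where 9.79% of all genes passed, against 6 with all arrays. Ratios were then -0.88 for EIF4G2 (adjusted p = 0.00380), -0.51 for EIF5A (0.0126), -0.48 for EEF1E1 (0.0126), -0.81 for EEF1B2 (0.0166), -0.74 for EIF4A3 (0.0230), -1.06 for EIF2S1 (0.0286), -0.52 for EIF3E (0.0429) and 1.55 for EEF2K (0.00607). AGO2 and EIF5B passed too. EIF1B lost its call (-0.58, 0.0586). On the second array set EEF1G (0.00442) and EIF3E (0.0129) passed without that pair. Genes whose second pair lay nearer to 0 than the other pairs, or on the other side, gain in size when that pair is dropped. These passes are thus no separate support for them. The fit rests on the first and last pairs alone, and neither of those was left out in turn. What sets the second pair apart was not tested.

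The calls also rest on each array counting as 1 sample. With the pairs as a random block 3 of the 45 genes were called, EIF1, EIF1B and AGO1, against 3.79% of all genes. With each pair averaged to 1 value 0 of 45 passed in limma, and 0 of all genes did. The smallest adjusted p was that of EIF1 (0.148). An unadjusted p under 0.05 was reached by 12 of 45, against 1271 of 11913 over all genes. Within the slide that held 4 arrays only EIF3M of the 45 passed in limma (adjusted p = 0.0490), against 2.04% of all genes. The other slide held 1 array of each orientation and gives no test.

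Several probes of 1 gene often differed. On the first array set 24 of the 42 genes had several probes, and for 10 of them probes lay on both sides of 0, with a median gap of 0.249 between the lowest and the highest probe. The gap passed 0.5 for EIF2S3, EIF3E and EIF4E2. Of the 87 probes of all 45 genes 8 passed alone, against 4.64% of all probes. They belonged to EIF1, EIF1B, EIF1AY, EIF3M, EEF1B2, EEF1D and AGO1, whereas no probe of EIF3K or EIF4E2 did. On the second array set 10 of 16 genes had several probes, 8 of them with probes on both sides, and 0 of 73 probes passed in limma, against 6.12% of all probes, with 12 at an unadjusted p under 0.05.

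The most densely probed genes of the second array set show this spread within 1 transcript record. The 14 probes of EIF3E share 1 accession and ran from -0.72 to 0.10, with 13 below 0. The 13 probes of EIF4A2 ran from -0.55 to 0.08, and the 18 of EEF1A1 from -0.42 to 0.25, 10 below 0 and 8 above. A gene mean over these probes therefore lay between values that differ by 0.63 to 0.83.

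**Figure D4:**
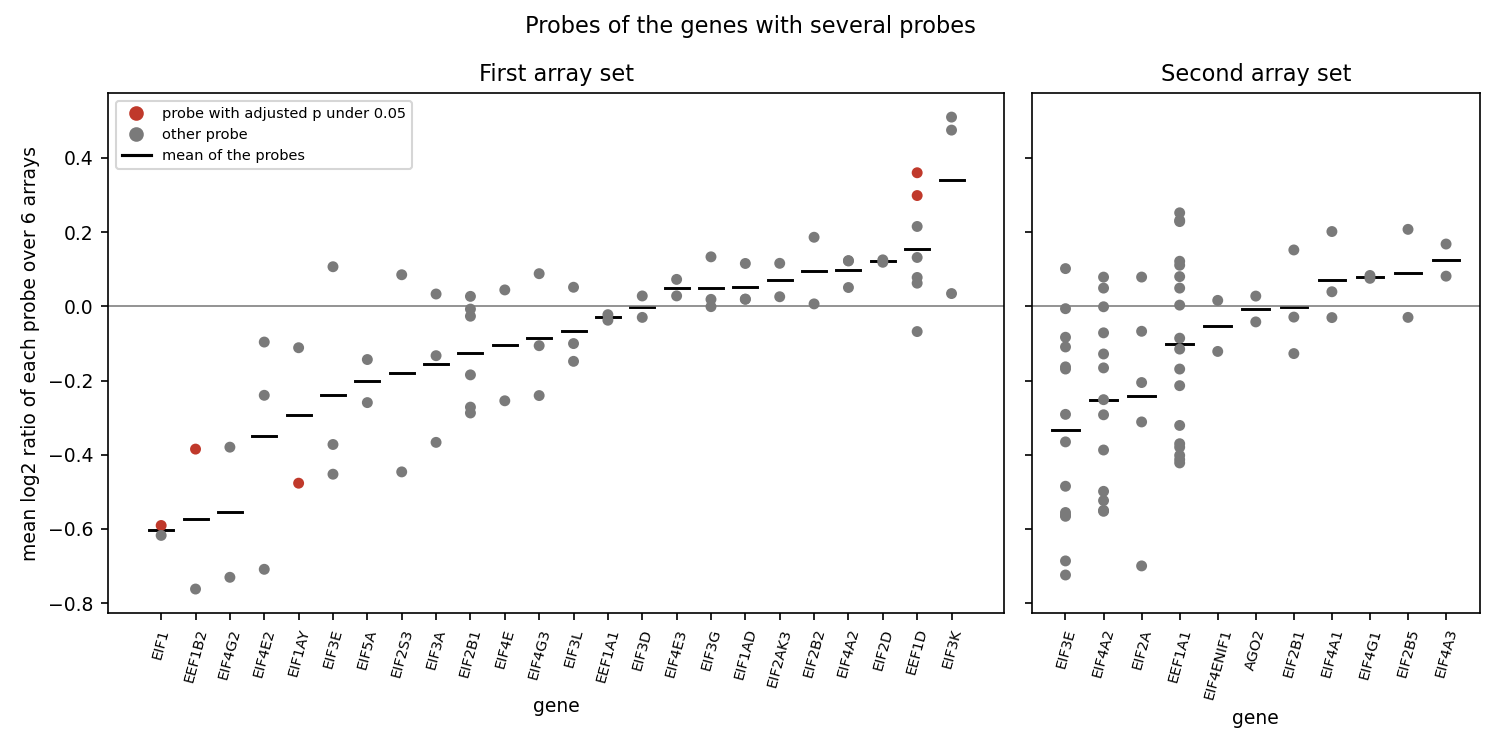
Mean log2 ratio over 6 arrays of each probe (dots; red where the probe passes alone) for the genes with several probes, with the gene mean as a black line, on the first and the second array set. Probes of EIF4E2 on the first set span 0.613 and those of EIF3E on the second 0.826, and no dot of the second set is red.

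For the 15 genes on both array sets, Argonautes included, 10 had ratios on the same side, and 0 were called on both. The sets hold different probes and were fitted apart, so the ratios are set side by side. EIF4E2 and AGO1 were called on the first set only, and for both the ratio of the second set was nearer to 0. The difference between the sets was not tested. EIF3E was negative on both (-0.24 and -0.33), as were EIF2A (-0.17 and -0.24), EIF4E (-0.11 and -0.50) and EEF1A1 (-0.03 and -0.10), whose sign turned on either set with a single array left out. EIF4A2, EIF4A3 and EIF2AK3 were among those on opposite sides.

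**Figure D5:**
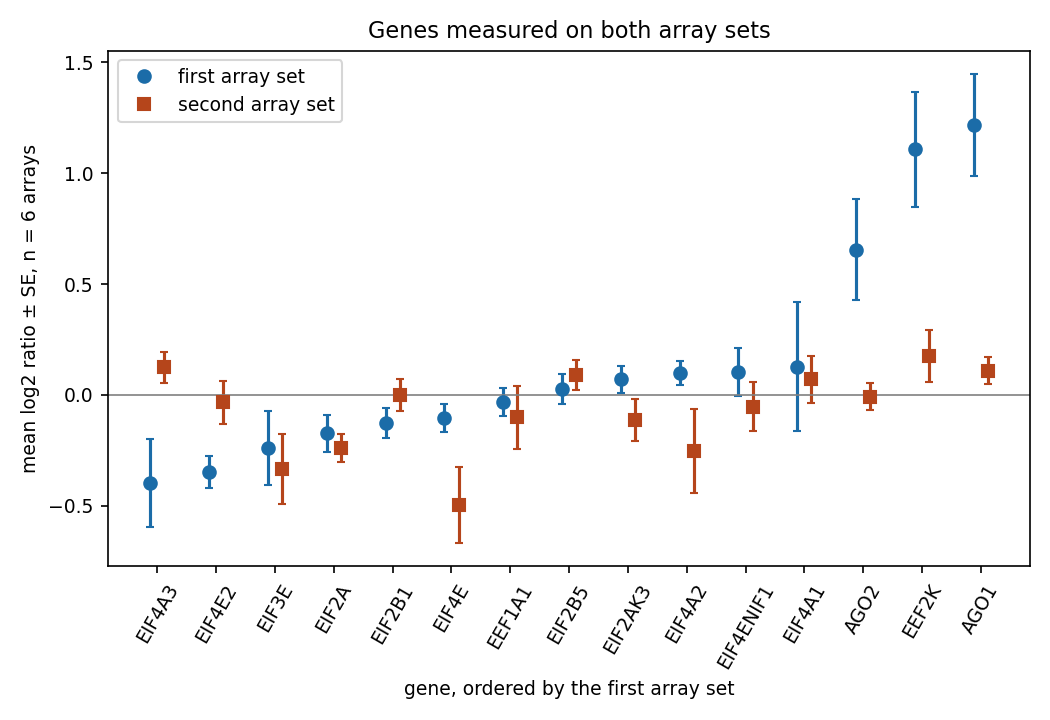
Mean log2 ratio (vertical axis; bars are the standard error, n = 6 arrays) of the 15 genes measured on both array sets, ordered by the first set, with circles for the first and squares for the second. Most pairs lie close to 0, and EEF2K and AGO1, at 1.11 and 1.22 on the first set, lie at 0.18 and 0.11 on the second.

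Of the 3 Argonaute genes AGO1 was called, on the first array set. AGO1, 1 probe, had ratios of 1.52, 0.76 and 2.08 with hatched in Cy5 and of 0.10, 1.18 and 1.67 with early in Cy5 on the first array set. All 6 arrays were positive, lowest on the second pair, with a mean of 1.22 ± 0.23 (adjusted p = 0.0297), a fold of 2.33. Dropping hatched in Cy5 replicate 1 (0.106) or 3 (0.0981), or early in Cy5 replicate 2 (0.110) or 3 (0.104), removed the call. AGO2, which cuts target RNA, lay at 0.66 ± 0.23 (0.191) and AGO4 at -0.11 ± 0.06 (0.414). The second set had AGO1 at 0.11 ± 0.06 (0.346) and AGO2 at -0.01 ± 0.06 (0.963).

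Beyond the factors themselves, 8 lists of genes that work with them held 72 measured genes in the first set and 19 in the second. Calls were made for 7 of the 72, 5 positive and 2 negative, against 4.75% of all genes. For the 19 there were 3, all positive, against 11.0% of all genes. The lists were chosen with earlier results of these data known, so these shares are no test of them. EIF2AK4, left out of the factor genes by name, is 1 of the 2 negative calls. With the pairs as a random block 5 of the 72 were called, against 3.79% of all genes. The aminoacyl-tRNA synthetases, which charge tRNAs with amino acids, gave 3 of 17 on the first array set, all positive: GARS for glycine (1.06 ± 0.07, adjusted p = 0.000929), SARS for serine (0.48 ± 0.09, 0.0310) and IARS for isoleucine (0.42 ± 0.07, 0.0160). The list's median was 0.22, with 10 of 17 above 0. In the second set 2 of 5 were called, SARS (0.77 ± 0.08, 0.00217) and VARS for valine (0.69 ± 0.10, 0.00612).

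The list of the integrated stress response, which starts from phosphorylated eIF2 alpha, had 2 of 10 called on the first array set. The list's median was 0.03, with 7 of 10 above 0. DDIT3, the transcription factor CHOP, lay at 0.94 ± 0.18 (adjusted p = 0.0330) and was called on the second array set too (0.44 ± 0.07, 0.00958; 1 of 4). EIF2AK4, the eIF2 kinase GCN2 that responds to uncharged tRNA and is left out of the genes above, lay at -1.89 ± 0.20 (0.00404). The other eIF2 kinases lay between 0.00 and 0.07 on that set. Of 5 genes for hypusine and diphthamide, the modified residues of eIF5A and eEF2, DHPS, which makes the hypusine precursor on eIF5A, was called at 0.29 ± 0.05 (0.0271). Of 14 partners at the cap, the poly(A) tail and the start site, PABPC4, a poly(A)-binding protein, was called at -0.27 ± 0.05 (0.0347), and 0 of 2 passed on the second array set, with 0 at an unadjusted p under 0.05.

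No gene passed in limma among 12 of TOR and S6 kinase signalling (2 at an unadjusted p under 0.05), 5 of release and recycling (3), 6 mitochondrial translation factors (0) and 3 of selenoprotein synthesis (2) on the first array set. The same held on the second for 6 of TOR and S6 kinase signalling (1), 1 of release and recycling (0) and 1 of selenoprotein synthesis (1).

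Per array, the deposited ratios had medians between -0.0061 and 0.0105, with standard deviations of 0.301 to 0.462 in the first set and 0.364 to 0.512 in the second. The blastocyst label could be read only through ratios. Among 16 trophectoderm, epiblast and hypoblast markers, the first set gave 8 positive calls and 1 negative one, where 4.75% of all genes were called. The positive calls were 4 of 7 trophectoderm and 4 of 6 hypoblast markers, and the negative one was SALL4 of the epiblast. Among 14 the second gave 6 and 2, where 11.0% of all genes were called. The negative ones there were TFAP2C of the trophectoderm and GATA6 of the hypoblast. Of markers of oviduct and uterus, blood, cumulus and sperm, 0 of 15 passed in limma on the first array set (1 at an unadjusted p under 0.05) and 1 of 13 on the second, the cumulus gene AMH at 0.35 ± 0.08. The part of these shifts between embryo lineages in the ratios of the translation factor genes was not tested.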

How the data were processed

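Hatched and early pig blastocysts were compared on 2 sets of 6 dual-colour arrays. The deposited value is 1 log ratio per probe and array, taken as log2 because single values reach -12.7 and 12.2. The sources used here do not give the authors' log base, normalization, background method or ratio direction. Arrays of opposite dye had correlations of -0.0841 to 0.648 (first set) and -0.170 to 0.573 (second set), and the number format differs between dye orientations, so the values were read as already turned to 1 direction and used as deposited. Had they not been turned, the dye term would hold the stage effect.

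Probes were named from the platform annotation, with names updated through RefSeq genes of the assembly Sscrofa11.1, and no coordinates or sequences are given. Of 43794 probes on the first array set 18121 had 1 symbol, 0 several and 25673 none, and 2658 of 4740 accessions matched. Of 45220 on the second 10290 had 1 symbol, 0 several and 34930 none, and 6055 of 10193 matched.

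Each array set was fitted with limma 3.58.1 in R 4.3.3 (lmFit, eBayes), with the intercept as stage effect beside a dye covariate, 2-sided, with Benjamini-Hochberg adjustment over all its genes and a threshold of 0.05. The fit was tested on simulated data with independent arrays, so that test does not cover array pairs that deviate together. Members, lists and markers were chosen with earlier results of these data known. Named are the called members, the 2 largest ratios of each role, core factors, and called genes of the lists. Genes outside this rule are marked as chosen after their values were seen, except where they are counted or listed by a shared pattern. Alternatives covered the dye term, array pairs, slides, centring, the median of probes, platform symbols, robust variances and each array left out.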

Additional observations from a re-analysis of the deposited data

Results flagged for a closer look

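EIF2AK2, the kinase that senses double-stranded RNA, had 1 array far from the others on the first array set. Its log2 ratio was 0.149 on hatched in Cy5 replicate 2, against values from -0.0612 to -0.0067 on the other 5 arrays. It was the 1 such case among 63 sets of 6 values examined, a rule by which chance picks about 1 set in 20.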

How the results depend on the processing

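Over 47 gene ratios and 752 alternative values 653 kept their sign and side of the threshold. Of the others 40 lost the call, 31 gained one and 28 changed sign, 0 of these where either fit made a call. Only the 6 called ratios could lose a call, so all 40 losses fell on them. The counts moved as well. Of the 45 genes on the first array set 6 were called, against 3 with the array pairs as a random block, 0 with pairs averaged, 15 with the slide as a random block, 1 within the slide of 4 arrays, 4 with the median of probes, 15 without the second pair, and 1 to 6 with each array left out in turn. The count was 1 without hatched in Cy5 replicate 1 or 3 or early in Cy5 replicate 2, and 2 without early in Cy5 replicate 3. Of the 18 on the second 0 were called, against 4 with the slide as a random block, 2 without the second pair, and 0 to 1 with 1 array left out. Called genes of the 8 related lists numbered 7 on the first array set, against 0 with pairs averaged, 20 with the slide block, 2 within the slide, 15 without the second pair and 2 to 7 with 1 array left out. On the second they numbered 3, against 0, 6 and 6 with pairs averaged, the slide block and without the second pair. The slide block raised the count over all genes likewise, to 1777 of 11913 on the first array set, with a negative estimated correlation (-0.186). The cause of these moves was not tested. A block by labelled replicate was not fitted, since the labels number no replicates, and the pairs used here were found from the residuals. Without channel intensities, signal over background could not be judged for any probe.

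With 1 array left out in turn, log2 ratios of the first array set ran from -0.0655 to 0.0137 for EEF1A1, -0.0352 to 0.102 for EIF2AK1, -0.0270 to 0.0191 for EIF2AK2, -0.0037 to 0.153 for EIF2B2, -0.0130 to 0.0758 for EIF2B5 and -0.143 to 0.360 for EIF4A1. In the second they ran from -0.0473 to 0.0171 for AGO2, -0.192 to 0.0407 for EEF1A1, -0.0496 to 0.0494 for EIF2B1, -0.0244 to 0.140 for EIF4A1 and -0.112 to 0.0444 for EIF4E2. Under other alternatives EIF2AK2 lay at -0.00035 with arrays centred and -0.0329 without the second pair, EIF2B5 at -0.0335 within the slide and EIF3A at 0.0174 with the median of probes. In the second set AGO2 lay at 0.0129 and EIF4E2 at 0.0380 within the slide, and EIF2B1 at 0.0121 with the median of probes and 0.0795 without the second pair.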
